A study of Mus musculus with 7 samples.

Results

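Adipokines are proteins that fat tissue releases into the blood or to its neighbours. The genes described here encode 10 of them: Adipoq (adiponectin), Lep (leptin), Retn (resistin), Cfd (complement factor D, or adipsin), Rbp4 (retinol binding protein 4), Nampt (nicotinamide phosphoribosyltransferase, or visfatin), Apln (apelin), Retnla (resistin-like alpha), Nrg4 (neuregulin 4) and Angptl4 (angiopoietin-like 4). They were taken by name, and all 10 of the 10 names had a usable locus among the 21341 protein-coding names of the table. The data are RNA-Seq of rRNA-depleted total RNA from 7 tissues of wt C57BL/6 mice that were 36 weeks old and received the diet labelled NCD. Of the tissues, 3 are fat depots, namely visceral (VAT), subcutaneous (SCAT) and brown (BAT) adipose tissue, and the 4 others are liver, kidney, cortex and skeletal muscle. The libraries differ in no other label. The study's text names the strain C57BL/6N. Each tissue has 1 library, so no difference below was set against a replicate spread, no p-value was computed, and neighbours in an order of tissues are not shown to differ. How many mice went into a library and where each depot was cut are not given in the sources used here. Levels are FPKM, in which fragments are divided by the length of the transcript and the size of the library. Fragment numbers are not part of the table, and the depth of each library is therefore unknown.

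White adipocytes store triglyceride and signal the size of that store through leptin, while adiponectin raises insulin sensitivity in liver and muscle. Brown adipocytes burn fuel for heat through the uncoupling protein Ucp1 and are known for low leptin and for secreted factors of their own, among them neuregulin 4. Several genes called adipokines are made in other cells as well: hepatocytes make most circulating retinol binding protein, macrophages make resistin-like alpha, and nearly every cell makes Nampt.

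Adipoq was high in all 3 fat depots, with 109.6 FPKM in SCAT, the lowest of them, and 14.1 in skeletal muscle, the highest of the 4 other tissues. Lep, Retn and Cfd were high in both white depots and lower in BAT. Nrg4 and Nampt had their highest levels in BAT. Rbp4 was a liver transcript, with 618 FPKM there and 28.3 in VAT. Of the 10 genes, 5 (Adipoq, Lep, Retn, Cfd and Nrg4) had at least 1 FPKM in a depot and a log2(FPKM + 0.1) there at least 2, or 4-fold, above the highest of liver, kidney, cortex and muscle. Of 14928 protein-coding names with at least 1 FPKM in any tissue, 5.42% met this rule. With the lowest of the 3 depots held to the same rule, 1 of the 10 genes (Adipoq) met it, beside 0.161% of the names, and this count rests on the muscle library, without which 5 met it.

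The promoters of the 5 genes that met the first rule are shown so that the genes higher in fat can be read beside each other. The Cfd level used comes from the strand opposite to its promoter, as given with its values. They are RefSeq sequences on GRCm38.p6, from 250 bases before to 50 bases after a start, and RefSeq promoters were matched for 9 of the 10 genes, not for Angptl4. Capitals mark matches on either strand to TTGCNNAA, the core of a C/EBP site, or to AGGTCA, the half-site of nuclear receptors such as PPAR gamma with RXR. TATAAA, the TATA box, was searched too and did not occur in these 5.
Adipoq, chr16:23146286-23146585, plus strand: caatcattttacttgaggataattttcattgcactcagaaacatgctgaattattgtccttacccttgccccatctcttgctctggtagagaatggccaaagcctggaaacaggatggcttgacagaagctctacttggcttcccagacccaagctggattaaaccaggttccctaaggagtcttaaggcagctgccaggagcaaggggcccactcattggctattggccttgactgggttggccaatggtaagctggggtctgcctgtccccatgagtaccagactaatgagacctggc
Lep, chr6:29059971-29060270, plus strand: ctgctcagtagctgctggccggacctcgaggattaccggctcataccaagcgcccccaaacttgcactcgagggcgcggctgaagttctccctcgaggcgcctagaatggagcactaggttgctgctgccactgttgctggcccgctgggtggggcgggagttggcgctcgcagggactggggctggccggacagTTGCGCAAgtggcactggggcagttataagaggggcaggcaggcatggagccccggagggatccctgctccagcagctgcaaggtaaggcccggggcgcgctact
Retn, chr8:3655520-3655819, plus strand: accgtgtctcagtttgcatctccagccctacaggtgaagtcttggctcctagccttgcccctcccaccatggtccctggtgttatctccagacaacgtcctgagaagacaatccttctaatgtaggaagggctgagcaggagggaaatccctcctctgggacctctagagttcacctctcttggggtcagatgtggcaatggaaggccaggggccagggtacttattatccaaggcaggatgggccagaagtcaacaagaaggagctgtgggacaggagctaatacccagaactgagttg
Cfd, chr10:79890603-79890902, plus strand: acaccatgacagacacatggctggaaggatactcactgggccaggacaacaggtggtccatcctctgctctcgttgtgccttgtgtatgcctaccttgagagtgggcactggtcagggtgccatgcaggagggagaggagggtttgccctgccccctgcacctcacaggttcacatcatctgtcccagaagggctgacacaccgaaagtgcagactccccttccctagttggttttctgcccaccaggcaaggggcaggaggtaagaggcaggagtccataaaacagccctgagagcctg
Nrg4, chr9:55283576-55283875, minus strand: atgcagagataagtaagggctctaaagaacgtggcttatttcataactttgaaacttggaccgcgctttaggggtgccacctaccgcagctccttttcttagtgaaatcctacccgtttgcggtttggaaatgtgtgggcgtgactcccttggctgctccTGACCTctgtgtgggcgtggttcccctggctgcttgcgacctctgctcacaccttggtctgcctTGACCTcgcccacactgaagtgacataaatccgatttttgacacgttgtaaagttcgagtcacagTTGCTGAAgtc

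Lep held the palindrome TTGCGCAA, with its first base at -55 from the start. Nrg4 held AGGTCA on the minus strand of the window, read as TGACCT, at -90 and -26, and TTGCTGAA at 40. The Nrg4 window belongs to a start inside the gene as GENCODE draws it (chr9:55220222-55326844). Adipoq, Retn and Cfd held none of the 3 motifs in these letters. Among the other genes, the Retnla window held all 3 motifs, with TTGCTAAA at -134, AGGTCA at -50 and TATAAA at -30. Nampt held AGGTCA at -151, and 1 of the 2 Rbp4 windows held a C/EBP match at -128 and TATAAA at -28. Of 32851 promoters of the same length, 10.8% held TTGCNNAA, 16.3% held AGGTCA and 13.6% held TATAAA, so each match is a description of the letters and names no site in use.

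**Figure D1:**
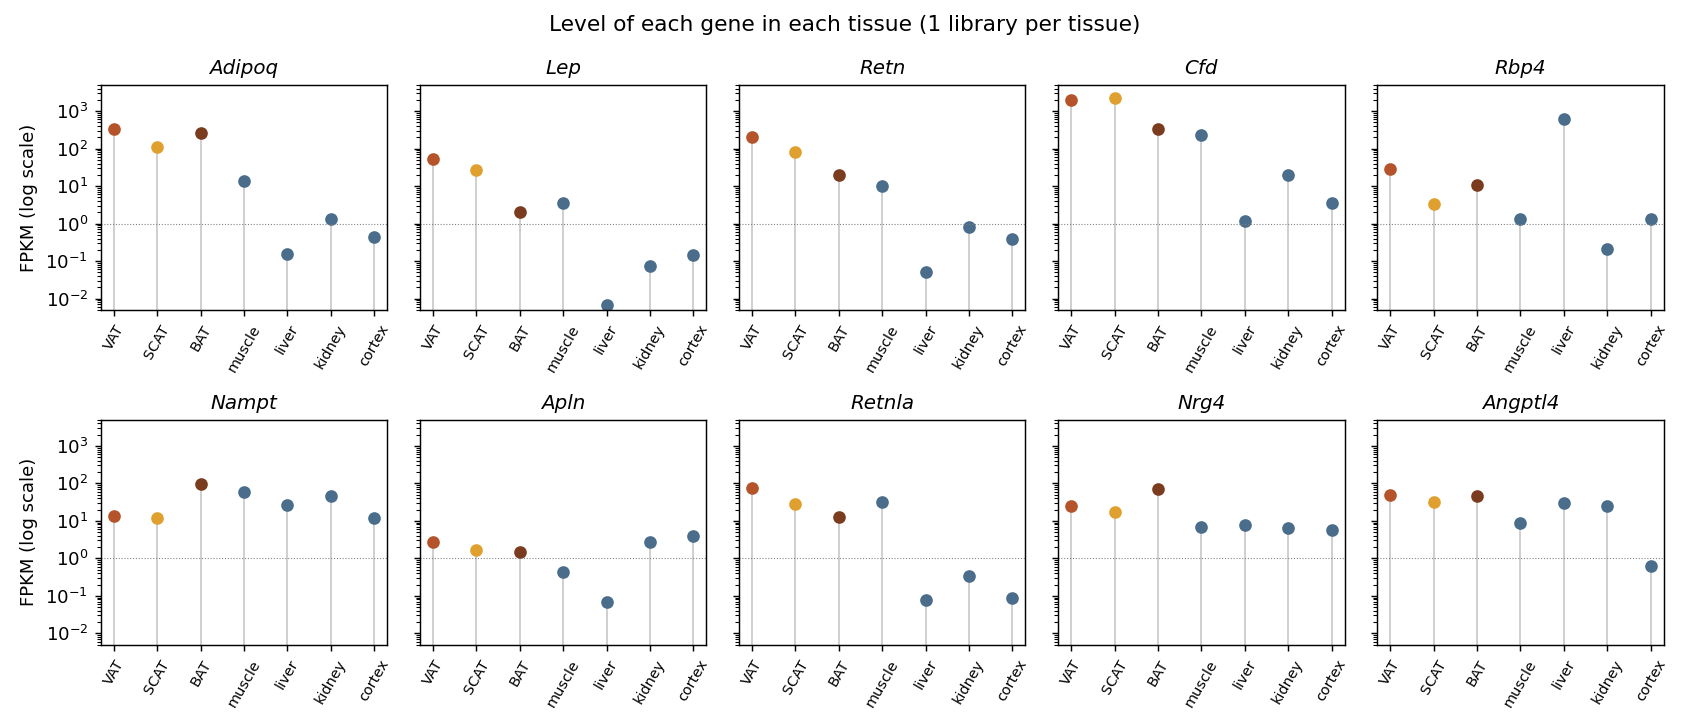
FPKM (vertical axis, log scale) of each of the 10 genes in each of the 7 tissues, with 1 point per library, the fat depots in brown and orange and the other tissues in blue. The dotted line is 1 FPKM. Adipoq, Lep, Retn, Cfd and Retnla are lowest in liver, while Rbp4 is highest there at 618 FPKM.

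The fat libraries held the genes of fat cells. Of 10 adipocyte genes, 9 had at least 1 FPKM in VAT, 9 in SCAT and 10 in BAT, and their summed level was 6087 FPKM in VAT, 3277 in SCAT and 11105 in BAT. The lipid carrier Fabp4 led in each, with 5143 FPKM in VAT, 2829.8 in SCAT and 9367 in BAT, followed by the droplet protein Cidec with 587, 204 and 746. Ucp1 had 6552 FPKM in BAT against 0.309 in VAT and 0.324 in SCAT, although Dio2, the brown fat deiodinase, had 0.387 FPKM in BAT and Lhx8 had 0.736 there and 1.03 in SCAT. Over the 10 brown adipocyte genes the summed level was 20828 FPKM in BAT, 76.3 in VAT and 153 in SCAT, and in BAT it was led by Cox8b (11478, with 5108 in muscle) and Ucp1.

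Each fat library also carried transcripts of other cells. VAT held 4 of 6 epididymal genes at 1 FPKM or more, led by Crisp1 (1386, at a locus shared with Crisp3) and Lcn5 (1119), with Cst11 at 0. Their sum was 2645 FPKM there and at most 1.99 in the other depots. VAT also held 5 of 6 mesothelial and epithelial genes (sum 19.2 FPKM, at most 1.84 in the other depots), led by Krt19 (6.83) and Lrrn4 (4.43), and all 4 hepatocyte genes, led by Alb (253) and Apoa1 (17.7), with a sum of 290.5 FPKM against 7.62 in SCAT and 1.69 in BAT. SCAT held 7 of 7 lymphocyte genes, led by Ms4a1 (50.6) and Cd79b (40.7), with a sum of 168 FPKM against 5.78 in VAT and 1.07 in BAT. It also held 8 of 8 pancreatic acinar genes, led by Ctrb1 (35.9) and Cpa1 (29.9), with a sum of 148 FPKM against 8.49 and 6.51. BAT held all 4 skeletal muscle genes measured, led by Tnnt3 (307, at a locus shared with Lsp1) and Ckm (166), with a sum of 643 FPKM against 60.8 in VAT and 75.1 in SCAT. Tnnt3 made up most of the SCAT sum, with 70.2 FPKM there and 29.0 in VAT. The other 3 genes were at least 2-fold higher in VAT than in SCAT. Endothelial genes summed to 50.5, 50.1 and 74.4 FPKM in VAT, SCAT and BAT, led by Pecam1 (20.0, 25.2 and 26.6), with Emcn (12 and 21.1) second in VAT and BAT and Cdh5 (8.40) second in SCAT. Neutrophil genes summed to 15.9, 14.8 and 6.60. In VAT they were led by S100a8 (10.2) and Ltf (3.71), in SCAT by S100a8 (6.86) and S100a9 (4.21), and in BAT by S100a9 (3.04) and S100a8 (2.83). Kidney and neuron genes summed to at most 5.27 and 0.276 FPKM in the depots. The share of these cells in the levels of the adipokine genes was not tested. In bulk tissue, fewer cells of a type and less RNA per cell cannot be told apart.

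Adiponectin, resistin and leptin are the hormones most tied to the white adipocyte. Adipoq (ENSMUSG00000022878, chr16:23146536-23158028 in GENCODE on GRCm38, plus strand) had 330.2 FPKM in VAT, 258 in BAT, 109.6 in SCAT, 14.1 in muscle, 1.34 in kidney, 0.443 in cortex and 0.152 in liver. It ranked 45th in VAT, 140th in SCAT and 237th in BAT among the protein-coding names detected in each library. The 3 depots stood above every other tissue, and the muscle library stood above kidney, cortex and liver.

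Lep (ENSMUSG00000059201, chr6:29060220-29073877, plus strand) encodes the satiety hormone. It had 51.6 FPKM in VAT, 26.6 in SCAT, 3.65 in muscle, 2.02 in BAT, 0.141 in cortex, 0.0746 in kidney and 0.00675 in liver. BAT lay below the muscle library, and VAT was 25.6 times BAT. Its percentile among detected protein-coding names was 97.7 in VAT, 95.9 in SCAT and 41.5 in BAT.

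Retn (ENSMUSG00000012705, chr8:3655770-3660110, plus strand) encodes resistin, which in mice is made by adipocytes and impairs insulin action. It had 206 FPKM in VAT, 82.0 in SCAT, 19.5 in BAT, 9.91 in muscle, 0.791 in kidney, 0.396 in cortex and 0.0522 in liver. BAT stood above muscle, unlike for Lep. VAT was 10.5 times BAT and SCAT was 4.20 times BAT.

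Retnla (ENSMUSG00000061100, chr16:48842551-48844461, plus strand) belongs to the resistin family and is made by macrophages in type 2 immune responses as well as in white fat. It had 77.1 FPKM in VAT, 32.1 in muscle, 28.7 in SCAT, 12.3 in BAT, 0.346 in kidney, 0.0865 in cortex and 0.0773 in liver. Muscle stood between the white depots, and Retnla missed the fat rule (log2 difference 1.26). Both depend on the scaling: with median ratio scaling muscle (24.6) lay below SCAT (41.0), and the log2 difference of 2.07 met the rule, which made 6 of the 10 genes beside 7.07% of the names. Its highest locus is listed under Retnla and Retnlb together and lies on the strand opposite to the annotation. The locus on the annotated strand, under Retnla alone, had 60.5 FPKM in VAT, 25.4 in muscle, 22.2 in SCAT and 9.69 in BAT, in the same order. The general macrophage genes did not show this order. All 10 had at least 1 FPKM in each depot, with sums of 149 FPKM in VAT, 165 in SCAT and 95.5 in BAT and 84.4 in muscle. They were led by Lyz2 (59.1, 79.0 and 40.7) and, second, Clec10a in VAT (16.2), C1qa in SCAT (16.1) and Cd68 in BAT (12.2). The 4 genes of alternatively activated macrophages summed to 26.6, 20.6, 15.7 and 9.98 FPKM in VAT, SCAT, BAT and muscle, led in the depots by Clec10a (16.2, 13.3 and 6.77) and Mgl2 (6.15, 5.42 and 5.01). Clec10a is also in the general macrophage list, and Chil3, of the same 4, ran the other way with 0.175, 0.639 and 2.99 FPKM in VAT, SCAT and BAT. Their part in the Retnla levels was not tested.

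Cfd (ENSMUSG00000061780, chr10:79890853-79892655, plus strand) encodes the serine protease that starts the alternative complement pathway. At its highest locus it was the most abundant of the 10 in all 3 depots, with 2241 FPKM in SCAT, 1963 in VAT, 336 in BAT, 237 in muscle, 20.4 in kidney, 3.50 in cortex and 1.17 in liver. It ranked 2nd among detected protein-coding names in VAT, 3rd in SCAT and 178th in BAT. These values come from a locus on the strand opposite to the annotation. The locus on the annotated strand had 578 FPKM in SCAT, 542 in VAT, 104 in BAT, 54.0 in muscle, 5.51 in kidney, 0.747 in cortex and 0.376 in liver, and in BAT this lay below the 258 FPKM of Adipoq. Both loci gave the same order of tissues, and the opposite one held between 75.8% and 82.4% of the sum of the pair in the 7 libraries. A further Cfd locus on the opposite strand, with 175 FPKM in SCAT, 156 in VAT and 30.1 in BAT, is not part of that sum.

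Rbp4 (ENSMUSG00000024990, chr19:38116629-38125281, minus strand) encodes the blood carrier of retinol. It had 618 FPKM in liver, 28.3 in VAT, 10.5 in BAT, 3.32 in SCAT, 1.33 in cortex, 1.30 in muscle and 0.210 in kidney. The level in VAT was 4.58% of that in liver. VAT also held hepatocyte transcripts at lower shares of their liver level, with 0.701% for Apoa1, 0.699% for Hpx, 0.559% for Fgb and 0.850% for Ttr, the partner of Rbp4 in blood. Over 202 protein-coding names with at least 100 FPKM in liver and 4-fold above every other tissue, the median share in VAT was 1.10% of the liver level, with quartiles of 0.665% and 5.47%, and 56 of the 202 had a higher share than Rbp4. In SCAT the median of these names was 0.0880% and Rbp4 stood at 0.538%. In BAT the values were 0.0830% and 1.69%. The part of liver transcripts in the VAT level of Rbp4 was not tested.

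**Figure D2:**
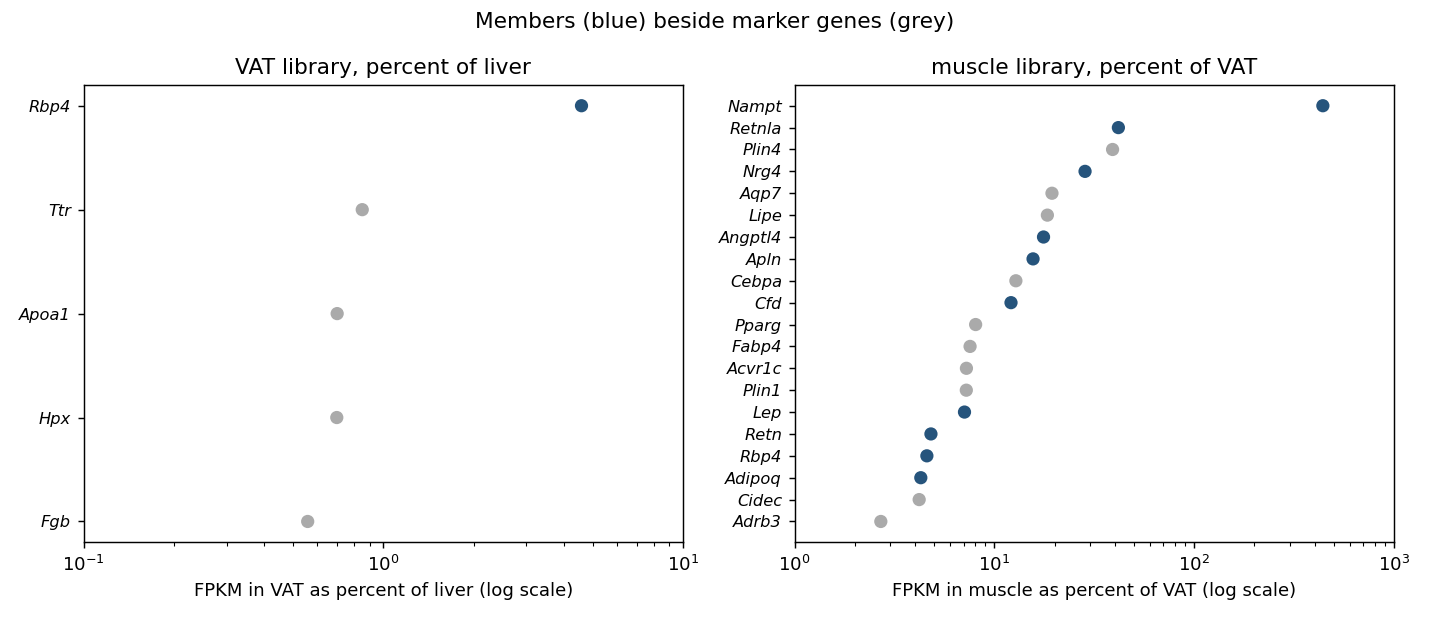
Left, FPKM in the VAT library as a percent of the liver library for Rbp4, Ttr and hepatocyte genes (log axis, 1 point per gene). Right, FPKM in the muscle library as a percent of the VAT library for the adipokine genes (blue) and adipocyte genes (grey). Rbp4 stands at 4.58% of liver, above the 0.850% of Ttr, and Adipoq, Retn and Lep in muscle stand at 4.28% to 7.08% of VAT.

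The muscle library held adipocyte transcripts, with a summed level of 469 FPKM over the 10 adipocyte genes. Relative to VAT, these genes stood at 2.70% (Adrb3) to 39.0% (Plin4) in muscle, with Cidec at 4.20%, Plin1 at 7.23% and Fabp4 at 7.55%. The second highest of them stood at 19.4%. Adipoq at 4.28%, Retn at 4.81%, Lep at 7.08% and Cfd at 12.1% lay in this range, and so did Rbp4 (4.59%), Apln (15.6%), Angptl4 (17.6%) and Nrg4 (28.4%). Retnla at 41.7% and Nampt at 439.9% lay above it. When muscle was left out of the other tissues, a choice made after seeing the data, 6 of the 10 genes met the fat rule in the highest depot, Retnla being the addition, beside 8.44% of 14711 names. In the lowest depot 5 met it, namely Adipoq, Lep, Retn, Cfd and Retnla, beside 0.816% of the names. The part of adipocyte transcripts in the muscle levels was not tested.

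Nampt and Nrg4 had their highest level in BAT. Of the 10 adipocyte genes, 6 were at least 2-fold higher and 1 (Plin4, with 19.2 FPKM in BAT and 50.3 in VAT) lower in BAT than in VAT. Relative to their median, Nampt exceeded VAT by 1.70 and SCAT by 1.18 on the log2 scale, and Nrg4 by 0.33 and 0.15. Nampt (ENSMUSG00000020572, chr12:32819545-32853349, plus strand) encodes the enzyme that recycles nicotinamide to NAD. It had 99.1 FPKM in BAT, 59.0 in muscle, 47.4 in kidney, 26.9 in liver, 13.4 in VAT, 12.1 in cortex and 11.6 in SCAT. All tissues exceeded 10 FPKM, and the white depots lay with cortex at the lower end. The skeletal muscle genes in BAT stood at 1.46% to 3.13% of their muscle level, and Nampt in BAT was 1.68 times its muscle level. The part of muscle transcripts in the Nampt level was not tested. Nrg4 (ENSMUSG00000032311, minus strand) encodes a ligand of the ErbB4 receptor. It had 70.7 FPKM in BAT, 24.8 in VAT, 17.0 in SCAT, 7.77 in liver, 7.04 in muscle, 6.44 in kidney and 5.67 in cortex. The 3 depots stood above the 4 other tissues, which lay close together. Its locus overlaps genes on the other strand, Ube2q2 and Fbxo22 among them.

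Angptl4 (ENSMUSG00000002289, chr17:33773750-33781830, minus strand) encodes an inhibitor of lipoprotein lipase that PPARs induce. It had 48.9 FPKM in VAT, 47.2 in BAT, 31.7 in SCAT, 30.4 in liver, 24.7 in kidney, 8.60 in muscle and 0.616 in cortex. The depots lay within a factor of 1.54 of each other, and liver was close to SCAT. Apln (ENSMUSG00000037010, chrX:48025146-48034853, minus strand) encodes the ligand of the apelin receptor. It had 4.0 FPKM in cortex, 2.80 in VAT, 2.66 in kidney, 1.64 in SCAT, 1.49 in BAT, 0.436 in muscle and 0.0686 in liver. These values come from a locus opposite to the annotated strand, and the locus on the annotated strand had at most 0.243 FPKM in any library, so the level of Apln rests on which strand is read.

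**Figure D3:**
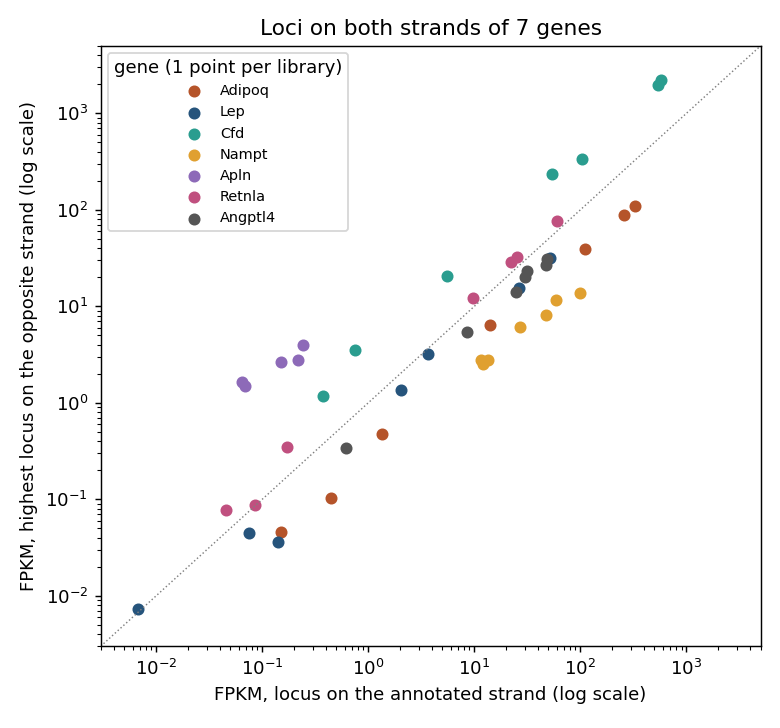
FPKM of the locus on the annotated strand (horizontal axis, log scale) against the highest locus on the opposite strand (vertical axis, log scale) for the 7 genes with loci on both, 1 point per library in which both exceed 0. Points of a gene run along the diagonal, with Cfd, Apln and Retnla above it and Adipoq, Nampt and Angptl4 below. Retnla in cortex lies almost on it (0.0865 opposite and 0.0863 annotated). Lep lies below it except in liver (0.00730 opposite and 0.00675 annotated).

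Of the 10 genes, 3 (Retn, Rbp4 and Nrg4) had 1 locus and 7 had loci on both strands. The table has no strand column, and strands were inferred from the sequence in which its rows are listed. The opposite locus moved with the annotated one across libraries. For Adipoq it held 24.7% to 31.1% of the sum of the pair in the 5 libraries where that sum reached 1 FPKM, and for Lep 36.8% to 46.6% in 4. For Angptl4 the range was 36.1% to 42.5%, for Nampt 12.1% to 19.2% and for Retnla 55.8% to 56.3%. The loci used for Adipoq, Lep, Nampt and Angptl4 are on the annotated strand, so reading that strand alone could not move their differences. For Cfd and Retnla, whose used locus is opposite, the log2 differences between depots stayed within 1.5-fold of those given below. The largest shift was that of Cfd between BAT and SCAT, with -2.47 on the annotated strand against -2.74. Levels between genes depend on the locus. For Apln the annotated locus lay below 1 FPKM, and its VAT to SCAT ratio was 3.34 there against 1.70. The Rbp4 locus has the same bounds as Ffar4, a fatty acid receptor gene on the plus strand, which had 106 FPKM in liver, 3.10 in VAT, 4.66 in BAT and 0.499 in SCAT.

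Between the white depots, Rbp4, Adipoq, Retnla and Retn were at least 2-fold higher in VAT than in SCAT, and none of the 10 was 2-fold lower. The log2 differences were 3.05 for Rbp4, 1.59 for Adipoq, 1.42 for Retnla and 1.33 for Retn. Lep, at 0.95, lay just inside the 2-fold limit. Apln (0.73), Angptl4 (0.62), Nrg4 (0.54) and Nampt (0.20) were nearer, and Cfd (-0.19) was the 1 gene with a higher level in SCAT. Of 11963 protein-coding names with at least 1 FPKM in either depot, 15.1% were 2-fold higher and 8.62% 2-fold lower in VAT, with a median of 0.16. The 9 adipocyte genes with at least 1 FPKM had a median of 0.63 in the same direction, with a range of 0.27 to 1.77. Relative to that median, Rbp4 alone stayed past 2-fold (2.43), beside 7.70% of the names, and Adipoq had 0.96.

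Between BAT and VAT, Lep, Retn, Retnla, Cfd and Rbp4 were at least 2-fold lower in BAT and Nampt and Nrg4 at least 2-fold higher. Lep differed by -4.61 on the log2 scale, Retn by -3.39, Retnla by -2.64, Cfd by -2.55 and Rbp4 by -1.43. Nampt had a difference of 2.88 and Nrg4 of 1.51. Apln (-0.87), Adipoq (-0.36) and Angptl4 (-0.05) lay within 2-fold. Of 11971 names, 30.8% were 2-fold higher and 12.6% 2-fold lower in BAT, with a median of 0.52. Relative to this median Nrg4 had 0.99. With median ratio scaling of the libraries Nrg4 had 0.80, below 2-fold, and Adipoq (-1.07) and Apln (-1.55) passed 2-fold, which made 7 genes lower in BAT in place of 5, beside 23.3% of the names under that scaling. The 10 adipocyte genes had a median of 1.17, with a range of -1.39 to 2.01, the median lying in the opposite direction to Lep, Retn and Cfd. Relative to it 8 genes were at least 2-fold lower, Adipoq (-1.53), Apln (-2.04) and Angptl4 (-1.22) among them, beside 35.0% of the names.

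Between BAT and SCAT, Cfd (-2.74), Retn (-2.06), Lep (-3.65) and Retnla (-1.21) were again at least 2-fold lower in BAT. Nampt (3.08), Nrg4 (2.05), Rbp4 (1.62) and Adipoq (1.23) were at least 2-fold higher, while Angptl4 (0.57) and Apln (-0.14) were not apart. Of 11731 names, 38.5% were 2-fold higher and 11.8% 2-fold lower in BAT, with a median of 0.65. With median ratio scaling, Adipoq (0.42) and Rbp4 (0.83) no longer passed 2-fold and Angptl4 (-0.23) changed sign. The median of the 10 adipocyte genes was 1.90, with a range of -0.76 to 2.92, and relative to it Adipoq (-0.67), Rbp4 (-0.28) and Angptl4 (-1.33) turned lower, Nrg4 (0.15) no longer passed 2-fold and Apln had -2.04. This made 6 genes at least 2-fold lower in BAT in place of 4, beside 58.2% of the names on the same footing. The 3 comparisons share their libraries, so they are not independent of each other.

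**Figure D4:**
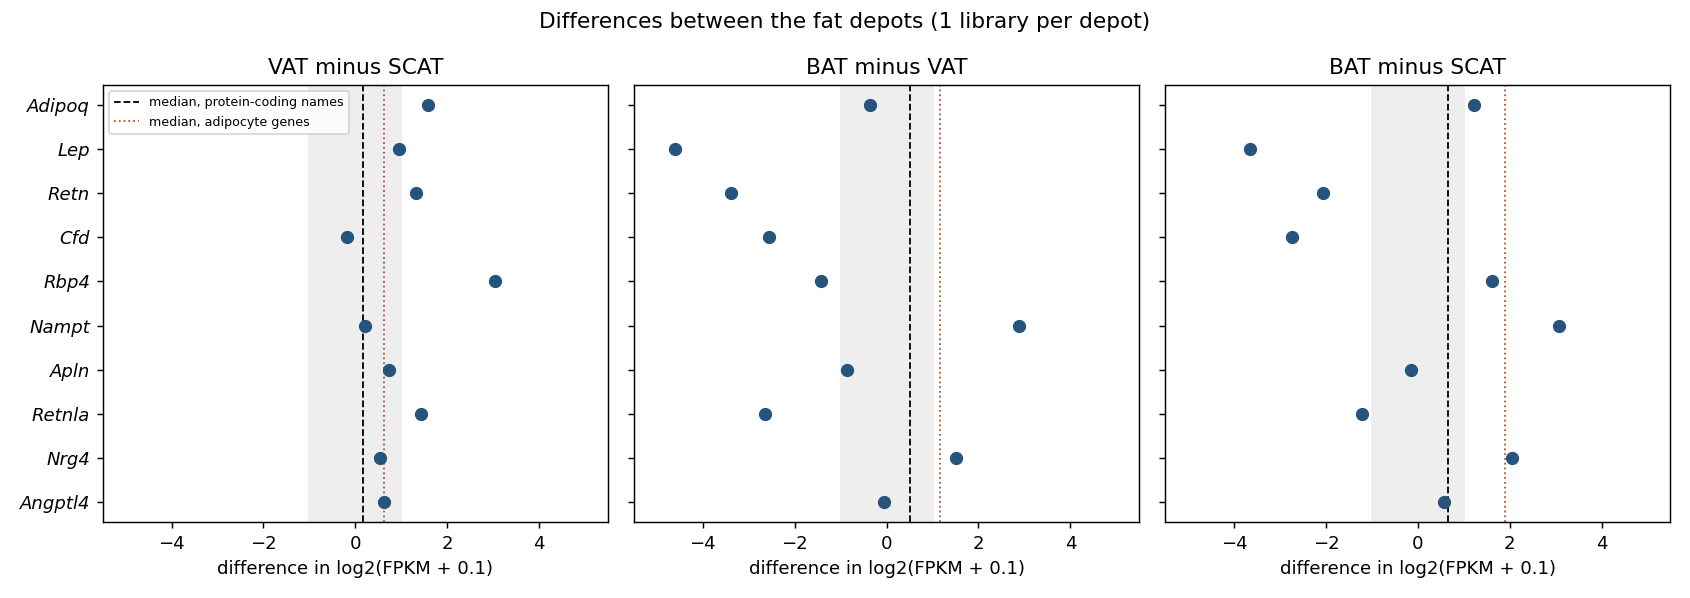
Difference in log2(FPKM + 0.1) of each gene for the 3 pairs of fat depots, 1 library per depot. The grey band is less than 2-fold, the dashed line the median of the protein-coding names and the dotted line that of the adipocyte genes. Lep, Retn, Cfd and Retnla lie left of the band in both comparisons with BAT, and Nampt and Nrg4 lie right of it.

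Set against Adipoq in the same library, a ratio that library scaling cannot move, the makeup of the adipokine transcripts differed between brown and white fat. Lep was 15.6% of the Adipoq level in VAT, 24.2% in SCAT and 0.783% in BAT. Retn was 62.3%, 74.8% and 7.58%, and Retnla 23.4%, 26.2% and 4.78%. Cfd was 595%, 2044% and 130.2% at the locus on the opposite strand, but 164%, 528% and 40.4% at the locus on the annotated strand, so in BAT it lay above Adipoq at the one and below it at the other. The ratios of all 4 were highest in SCAT and lowest in BAT. Nampt ran the other way between white and brown fat, with 4.06%, 10.6% and 38.4%, and so did Nrg4, with 7.50%, 15.5% and 27.4%. Angptl4 (14.8%, 28.9% and 18.3%) and Rbp4 (8.58%, 3.03% and 4.06%) showed narrower ranges. Apln had 0.847%, 1.5% and 0.576% at the locus on the opposite strand and 0.0656%, 0.0592% and 0.0269% at the one on the annotated strand. As a share of the summed level of the 10 genes, Cfd made up 71.5% of 2746 FPKM in VAT, 87.8% of 2553 in SCAT and 39.2% of 856 in BAT, where Adipoq made up 30.1%, Nampt 11.6% and Nrg4 8.25%. With the annotated strand alone, Cfd made up 41.5% of 1306 FPKM in VAT, 65.5% of 883 in SCAT and 16.8% of 621 in BAT, and Adipoq with 41.5% was then the largest in BAT.

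**Figure D5:**
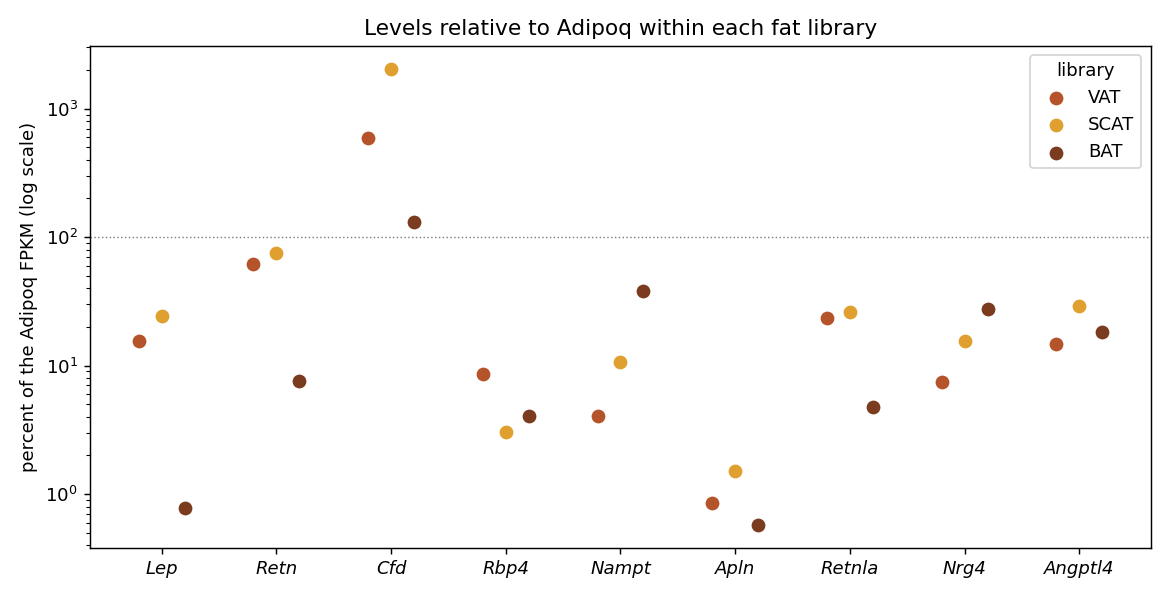
FPKM of each gene as a percent of the Adipoq FPKM in the same library (vertical axis, log scale), with 1 point for each of VAT, SCAT and BAT. Lep, Retn, Cfd and Retnla are lowest in BAT, with Lep at 0.783% there, and Nampt and Nrg4 are highest in BAT.

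Of 17 genes for receptors and partners of these proteins, 16 were measured. The locus of Cfb, the substrate of Cfd, failed in the authors' comparison and was left out. Of those with at least 1 FPKM in either depot, 4 of 13 were 2-fold higher and 1 of 13 2-fold lower in VAT than in SCAT (median log2 difference 0.76), beside 15.1% and 8.62% of all names. In BAT against VAT 4 of 14 were higher and 3 of 14 lower (median 0.16), beside 30.8% and 12.6%. In BAT against SCAT 5 of 12 were higher and 1 of 12 lower (median 0.88), beside 38.5% and 11.8%. The adiponectin receptors Adipor1 (15.2 FPKM in VAT, 8.92 in SCAT and 30.8 in BAT) and Adipor2 (66.2, 48.5 and 189.9) were highest in BAT among the depots. Cdh13, which binds adiponectin, had 11.9, 6.41 and 8.49. The leptin receptor Lepr had 1.29 FPKM in VAT, 9.58 in SCAT and 0.212 in BAT, the reverse of Lep between the white depots, and SCAT is the library with the lymphocyte and acinar genes given above, whose part in the Lepr level was not tested. Cap1 (24.7, 31.8 and 26.9) and Tlr4 (3.79, 5.12 and 4.38), named as resistin receptors, varied little.

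Lipoprotein lipase, the target of Angptl4, had 301 FPKM of Lpl in VAT, 102 in SCAT and 646 in BAT, and its endothelial anchor Gpihbp1 had 63.8, 36.2 and 66.1. The ratio of BAT to SCAT was thus larger for Lpl than for Angptl4 (47.2 and 31.7 FPKM). C3, the complement protein on which the Cfd pathway acts, had 65.9, 99.4 and 80.9 in the depots and 1593 in liver, and the anaphylatoxin receptors C3ar1 (3.43, 1.42 and 3.4) and C5ar2 (0.521, 0.465 and 0.514) were low. Erbb4, the receptor of Nrg4, had 3.39 FPKM in BAT, 0.161 in VAT and 0.237 in SCAT, and its partner Erbb3 had 2.80 in VAT, 0.261 in SCAT and 0.477 in BAT. The apelin receptor Aplnr had 1.78, 1.88 and 3.59 FPKM in VAT, SCAT and BAT. Stra6, the Rbp4 receptor, was at 0.10 FPKM or less in the depots, and Ttr had 30 in VAT, 0.438 in SCAT, 0.130 in BAT and 3530.1 in liver.

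A wider list of 38 secreted proteins of fat was read without Retnlb, whose highest locus is the one it shares with Retnla. Of the remaining 37, 4 met the fat rule in the highest depot and 0 in the lowest, where the shares of all names were 5.42% and 0.161%. Those with at least 10 FPKM were the Wnt inhibitor Sfrp5 (36.8 in VAT, 8.35 in SCAT, 1.06 in BAT and at most 4.27 elsewhere), the matricellular protein Wisp2 (12.3, 5.95, 0.566 and at most 2.58) and the monocyte chemokine Ccl2 (2.01, 2.54, 20.7 and at most 1.73). In VAT against SCAT 14 of 28 were 2-fold higher and 1 of 28 lower (median 0.96), beside 15.1% and 8.62% of all names and a median of 0.63 for the adipocyte genes. Hepatocyte genes (290.5 against 7.62 FPKM) and epididymal genes (2645 against 1.99) were higher in VAT too, and the 14 hold Agt and Serpina12, which had 58.3 and 82.0 FPKM in liver. Their part in the count was not tested. In BAT against VAT 8 of 29 were higher and 14 of 29 lower (median -0.81), beside 30.8% and 12.6%. In BAT against SCAT 10 of 24 were higher and 7 of 24 lower (median 0.57), beside 38.5% and 11.8%.

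The largest differences in favour of VAT over SCAT were those of the iron-siderophore binder Lcn2 (4.74) and Slit2 (2.98), and in favour of SCAT those of Tnf (-2.53) and Cxcl14 (-0.39). The lymphocyte genes were also higher in SCAT (168 against 5.78 FPKM), and their part in the Tnf difference was not tested. Between BAT and VAT, Sfrp5 (-4.98) and Wisp2 (-4.22) were lowest in BAT, beside Lep at -4.61. Angptl8, a relative of Angptl4, (3.37) and Ccl2 (3.30) were highest. Between BAT and SCAT the extremes were Wisp2 (-3.18) and Sfrp5 (-2.86) on the low side, and Pm20d1 (4.63), a secreted enzyme that makes N-acyl amino acids, and Angptl8 (4.10) on the high side.

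Among 8036 other protein-coding names with at least 10 FPKM in any tissue, the genes whose log2 levels followed each adipokine most closely over the 7 tissues were picked by Pearson's r. These are descriptions over 7 points from 7 libraries, with no test, and many genes share the split between fat and other tissues. Adipoq was followed by Rbp7 (0.991), Adig (0.990) and Kank3 (0.987), and Lep by Sfrp5 (0.984), Mcam (0.967) and Ggta1 (0.967). Retn was followed by Sncg (0.993), Ctla2a (0.987) and Npr3 (0.987), and Cfd by Sncg (0.981), Gsn (0.980) and Ctla2a (0.978). Retnla was followed by Retnlb (1.000), which is the shared locus, and by Ggta1 (0.994) and Gsn (0.992). For Rbp4 the nearest were Ffar4 (0.978), which lies opposite, Cyp2c70 (0.967) and Pon1 (0.963), of which Cyp2c70 and Pon1 are liver genes with 38.5 and 584 FPKM there.

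Nampt was followed by Doc2g and Nudt8 (both 0.996, from 1 shared locus) and Bid (0.991), and Apln by Misp and Palm (both 0.978, from 1 shared locus) and Mturn (0.976). Nrg4 was followed by H2afy2 (0.980), Krt79 (0.966) and G6pdx (0.961), and Angptl4 by Ces1d (0.986), Shc1 (0.979) and Acp5 (0.976). Among the 10 themselves, Retn and Cfd (0.99) and Retn and Lep (0.98) ran closest, while Rbp4 had -0.04 with Adipoq and -0.19 with Cfd. Adipoq had 0.83 with Nrg4 and 0.08 with Nampt, which were both highest in BAT.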

How the data were processed

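RNA-Seq of 7 tissues was analysed, with 1 library per tissue. Per the paper's methods and the submitters' processing notes, the authors trimmed adapters with flexbar, removed ribosomal reads with Bowtie2 2.2.9, aligned to GRCm38 with STAR 2.6.0c and assembled and compared transcripts with Cufflinks 2.2.1 and cuffdiff. The authors deposited FPKM for 94339 loci in 21 comparisons, and the FPKM of a tissue was equal in the 6 comparisons it enters (relative tolerance 0.0001). The deposited fold changes, test statistics and p-values are the authors' own comparisons and were not used. The table holds no counts, so depth and its precision are unknown.

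The 151 loci marked FAIL were dropped, zeros marked LOWDATA were set to missing, and for a name with several loci the highest was taken. Biotypes and gene bounds come from GENCODE M21, in which 91.9% of 50354 names were found. By row order, 75.3% of locus and name pairs lie on the annotated strand. Levels were compared as log2(FPKM + 0.1), which understates differences of low genes, between names with at least 1 FPKM in either depot. The fat rule was tested on simulated data. The genes named are the 10, the receptor list, other secreted proteins with at least 10 FPKM and 4-fold enrichment or among the 2 largest differences in each direction, the 3 genes of most similar pattern, and the 2 highest markers per depot. Genes named beside these (Dio2, Lhx8, Agt, Serpina12, Plin1, Plin4, Adrb3, Hpx, Fgb) were picked with their values known. The genes and lists were chosen with earlier results of these data known. Python 3.11.15, pandas 2.3.3, NumPy 2.4.6 and matplotlib 3.10.9 were used. Acta1 was not analysed here.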

Additional observations from a re-analysis of the deposited data

How the results depend on the processing

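Of 96 recomputed counts of genes past a limit, 83 stayed within 1.5 times the reported count, and of 330 recomputed log2 differences 260 stayed within that factor. The minimum FPKM, LOWDATA zeros as 0 and failed loci kept could not change a log2 difference of the 10 genes. Reading the annotated strand only could change those of Cfd, Apln and Retnla alone. These tallies therefore include values that were fixed in advance. The pseudocount (1 or 0.01), a minimum of 5 FPKM or none, the sum of loci, LOWDATA zeros as 0, failed loci kept and, added after seeing the data, loci on the annotated strand only moved no count and no difference of the 10 genes past that factor, except that on the annotated strand Apln is too low for its differences to be read. Median ratio and upper quartile scaling each left 1 gene 2-fold higher in BAT than in VAT in place of 2, and 2 higher in BAT than in SCAT in place of 4, with a change of sign for Angptl4 (-0.23 and -0.26), while 7 were lower in BAT than in VAT in place of 5 and 6 met the fat rule in the highest depot in place of 5. These scalings shift the median difference between the libraries by construction. A 4-fold limit left 1 gene higher in VAT than in SCAT, 1 higher in BAT than in VAT and 2 higher in BAT than in SCAT. Relative to the adipocyte genes, 1 gene was higher in VAT than in SCAT, 1 higher and 8 lower in BAT than in VAT, and 1 higher and 6 lower in BAT than in SCAT, and the BAT to SCAT differences of Adipoq (-0.67), Rbp4 (-0.28) and, from within 2-fold, Angptl4 (-1.33) changed sign. With a 2-fold rule for fat, 2 genes met it in the lowest depot, and without the muscle library, added after seeing the data, 5 did. No share of all names was computed for the 4-fold limit between depots, the 2-fold rule for fat or upper quartile scaling. The same holds for the counts higher in BAT under median ratio scaling or relative to the adipocyte genes. Those counts are therefore not set against the general rate. No paired analysis was possible because each tissue has 1 library, and for the same reason no replicate could be left out. With depth unknown, values near 0 cannot be told from absence.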
